A study of Mus musculus with 32 samples.

Results

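The comparison described here sets whole femur marrow of DTRADQ mice against that of their controls after 2 daily doses of diphtheria toxin (DT). It was chosen from the titles, which name 4 libraries of each kind, so that 8 of the 32 libraries of the study enter it. DTRADQ mice came from a cross of iDTR mice, which carry a Cre-dependent DT receptor allele, with adiponectin-Cre mice, and are labelled as DTR flox and ADQ Cre+. Controls were Cre-negative littermates that are labelled DTR flox with no Cre, so they carried the receptor allele and received DT as well. All mice were 2 months old and of the C57BL/6 background, DT was injected intraperitoneally at 100 ng per mouse each day, and RNA of the whole marrow gave 1 library per mouse. The study also sampled both genotypes without DT and after 1 and 3 days of DT, again with 4 mice each, and these 24 libraries serve here as reference points.

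Mouse cells are nearly insensitive to DT unless they carry an introduced receptor, and once inside a cell the toxin stops protein synthesis and kills it. In marrow the adiponectin gene is active in fat cells and, more broadly, in reticular stromal cells that carry the leptin receptor. These stromal cells are the main local source of CXCL12 and stem cell factor, which hold blood stem cells and B cell precursors in place, and they also secrete inhibitors of bone formation. The Cre is driven by adiponectin, which fat cells outside marrow express too, so the toxin was not limited to marrow. In bulk marrow, fewer cells of a type and less RNA per cell cannot be told apart.

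Values are reads scaled to a common library size (counts per 1e6, CPM) after scaling of library sizes by the trimmed mean of M-values (TMM), and are given in the order of replicates 1 to 4 of each group. Changes are log2 differences, DTRADQ minus control, with a standard error (SE). A gene is called where the quasi-likelihood test of edgeR gave an adjusted p (Benjamini-Hochberg over all 14527 genes tested) under 0.05, and "rose" and "fell" refer to called genes only. Library totals were 11.54 to 14.4 M counts for DTRADQ mice and 12.8 to 14.46 M for controls. The share of the 10 most abundant genes was 25.1% to 30.19% for DTRADQ and 19.4% to 21.96% for controls. Genes of the mitochondrial genome held 1.506% to 1.825% and 1.911% to 2.418%, in the same order.

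DTRADQ replicate 1 stood apart from the other 3 DTRADQ libraries. Over the genes tested its root mean square log2 difference was 0.376 to the day 1 DTRADQ libraries and 0.489 to the other day 2 ones. For replicates 2, 3 and 4 the order was the opposite, with 0.524, 0.576 and 0.516 to day 1 against 0.415, 0.455 and 0.452 to day 2. Among the called genes replicate 1 lay outside the span of the other 3 in 751 (60.7%), and in 689 of these (91.7%) on the side of day 1. Replicate 3 lay outside the span of the others nearly as often, in 725 genes (58.6%), but in only 27.0% of these on the side of day 1. For replicates 2 and 4 the shares outside were 35.4% and 44.2%, with 41.6% and 65.3% of these on that side. In every gene the highest and the lowest library lie outside the span of the others, so the share outside alone sets no library apart. The labels do not say what a replicate number stands for, and calls and list counts that change without replicate 1 are given both ways.

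In all, 1238 of 14527 genes (8.52%) were called, 639 higher (4.4%) and 599 lower (4.12%) in DTRADQ, with a median log2 change over all genes of −0.04. Without DTRADQ replicate 1 the count was 1484 of 14785 (10%), 799 higher (5.4%) and 685 lower (4.63%). The calls shared in the same direction numbered 1076, while 162 were lost (38 higher and 124 lower) and 396 were gained. Other libraries mattered more for the count: it was 684 without DTRADQ replicate 2, 587 without DTRADQ replicate 3, 586 without control replicate 3 and 574 without control replicate 4. The 4 DTRADQ and 4 control libraries did not overlap in 3121 genes (21.5%). The shares of all genes given here are the reference for the day 2 counts of list members below.

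Not all calls of the genes named here were equally firm. Of 133 called genes that were checked for this, 49 lost the call under at least 1 of 15 alternative fits. In 39 of these it was lost only where a library was left out. Under 5 or more fits the call was lost for 25 genes: Rpl11, Aqp1, Egr1, Eno3, Id2, Mcm5, Trac, Ackr3, Alad, Gt(ROSA)26Sor, Hba-a1, Hlf, Itgb3, Clec1b, Col4a1, Col8a1, Cxcl2, Hba-a2, Igkv2-112, Itga2b, Mmrn1, Nefh, Slc35g1, Slc7a11 and Trbc2. Some called genes named here were not among the 133, such as Bmper, Cidec, Serpina3c, Lpl, Wnt4 and E2f1. Their calls were not checked in this way.

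**Figure D1:**
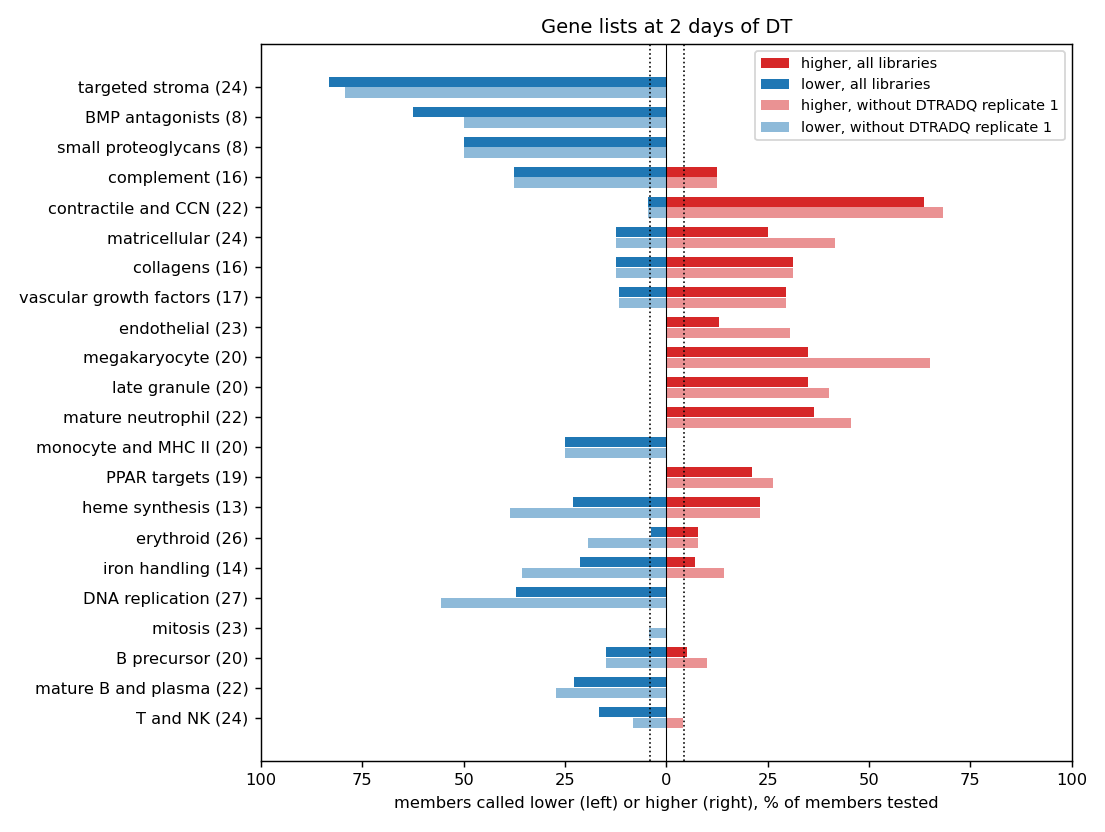
Share of the members of 22 gene lists called lower (bars to the left) or higher (bars to the right), in % of the members tested, whose number stands in brackets; dark bars use all 8 libraries, pale bars leave out DTRADQ replicate 1, and dotted lines mark the shares over all genes (4.12% and 4.4%). The stroma list reached furthest to the left with 20 of 24 members, and the contractile and CCN list furthest to the right with 14 of 22.

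Transcripts of the stromal cells in which the Cre is active were mostly lower in DTRADQ at day 2. Of 24 tested genes that mark adiponectin-lineage stroma or encode its niche factors, 20 fell and none rose, with a median log2 change of −2.61, against 4.12% of all genes that fell. Without DTRADQ replicate 1 the count was 19, since Lpl, lipoprotein lipase, no longer passed. The median over all tested members was then −2.32. Against the control mean the list median was −3.44 in replicate 1, the lowest, and −2.27, −2.72 and −2.51 in replicates 2 to 4. The loss was near complete for adiponectin and large for CXCL12, and a few members of the list did not pass.

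Adipoq, the adiponectin gene itself (chr16:23146536-23158028 in GRCm38), was at 0.39, 0.612, 0.221 and 0.979 CPM in the DTRADQ libraries and at 55.4, 55, 58.2 and 58.5 CPM in the controls, a log2 change of −6.74 (SE 0.38, adjusted p = 3.7e-14). Cxcl12, the chemokine that keeps stem cells in marrow (chr6:117168535-117181367), was at 30.0, 44.1, 36.1 and 33.3 CPM in the DTRADQ libraries and at 372, 399, 449 and 379.5 CPM in the controls (log2 difference −3.48 with SE 0.19, adjusted p = 2.6e-14). Lepr, the leptin receptor that marks these stromal cells, was at 2.1, 1.66, 3.38 and 2.45 CPM in the DTRADQ libraries and at 43.1, 29.9, 39.4 and 34.5 CPM in the controls (log2 difference −3.92 with SE 0.26, adjusted p = 1.6e-12). In all 3 genes every DTRADQ library lay far below every control library, and replicate 1 was in no case at the edge nearest to the controls. Kitl, stem cell factor, gave 15.6, 10.1, 7.14 and 12.4 CPM in DTRADQ and 39.9, 43.4, 51.6 and 36.4 CPM in controls (log2 difference −1.92 with SE 0.20, adjusted p = 6.5e-08). Il7, the growth factor of B cell precursors, gave 0.156, 0.786, 0.515 and 0.294 CPM in DTRADQ and 2.2, 1.42, 1.81 and 1.44 CPM in controls (log2 difference −1.96 with SE 0.45, adjusted p = 0.0061). Both were lower in each DTRADQ library than in any control, and the smallest remaining share of Kitl was in replicate 3.

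Receptors and 2 of the 3 transcription factors on this list fell as well. Pdgfra, the platelet-derived growth factor receptor alpha of mesenchymal cells, gave 0.39, 0.874, 1.25 and 0.392 CPM in DTRADQ and 4.17, 3.75, 3.81 and 3.35 CPM in controls (log2 difference −2.34 with SE 0.30, adjusted p = 2.6e-06). Pdgfrb, the beta receptor, which pericytes carry as well, gave 3.12, 4.02, 2.94 and 3.82 CPM in DTRADQ and 6.49, 6.73, 5.88 and 6.76 CPM in controls (log2 difference −0.90 with SE 0.17, adjusted p = 0.00065). Neither receptor overlapped between groups, and the change of Pdgfrb was the smaller of the 2. Foxc1, a transcription factor that maintains CXCL12-rich stroma, changed by −1.98 (SE 0.38, adjusted p = 0.001), and its DTRADQ libraries lay at 0.312 to 1.37 CPM against 3.54 to 4.71 CPM in controls. Ebf3, a factor of the same cells, changed by −2.88 (SE 0.48, adjusted p = 0.00018). In Foxc1 and Ebf3 replicate 1 was the lowest library, with 0.312 CPM of Foxc1 and 0.156 CPM of Ebf3. Prrx1, the third factor, did not pass (−0.48, adjusted p = 0.3817). Other members that fell were Esm1 (−3.96), Agt (−3.77), Gas6 (−3.43), Fbln5 (−1.65), Cdh11 (−1.30) and Lpl (−0.59).

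The rule for named genes also took the largest falls among all genes. Igfbp5, a binding protein of insulin-like growth factors, was at 1.71, 1.14, 1.32 and 1.47 CPM in the DTRADQ libraries and at 104, 56.9, 60.5 and 61.4 CPM in the controls (log2 difference −5.64 with SE 0.25, adjusted p = 8.0e-17). Dpep1, a membrane dipeptidase, gave 0.234, 0.437, 0.956 and 1.47 CPM in DTRADQ and 14.8, 13.7, 20.3 and 21.6 CPM in controls (log2 difference −4.53 with SE 0.42, adjusted p = 4.9e-09). Gdpd2, a glycerophosphodiester phosphodiesterase with 17.3% of its exon bases shared with other genes, gave 0.312, 0.874, 0.294 and 0.783 CPM in DTRADQ and 13.4, 14, 15.4 and 15.2 CPM in controls (log2 difference −4.71 with SE 0.41, adjusted p = 9.5e-10). Each of the 3 was far below the controls in all 4 DTRADQ libraries. Fmo2, a flavin monooxygenase, changed by −6.06 (SE 0.44), with 0 to 0.175 CPM in DTRADQ and 7.18 to 10.4 CPM in controls. Slc26a7, an anion transporter, changed by −5.88 (SE 0.60), with 0 to 0.156 CPM and 3.59 to 8.65 CPM. Serpina3c, a serine protease inhibitor, gave 1 read over the 4 DTRADQ libraries and 186 over the controls, so that controls held 141 times as much, with an exact binomial 95% interval of 25 to 5600, which covers counting error only.

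**Figure D2:**
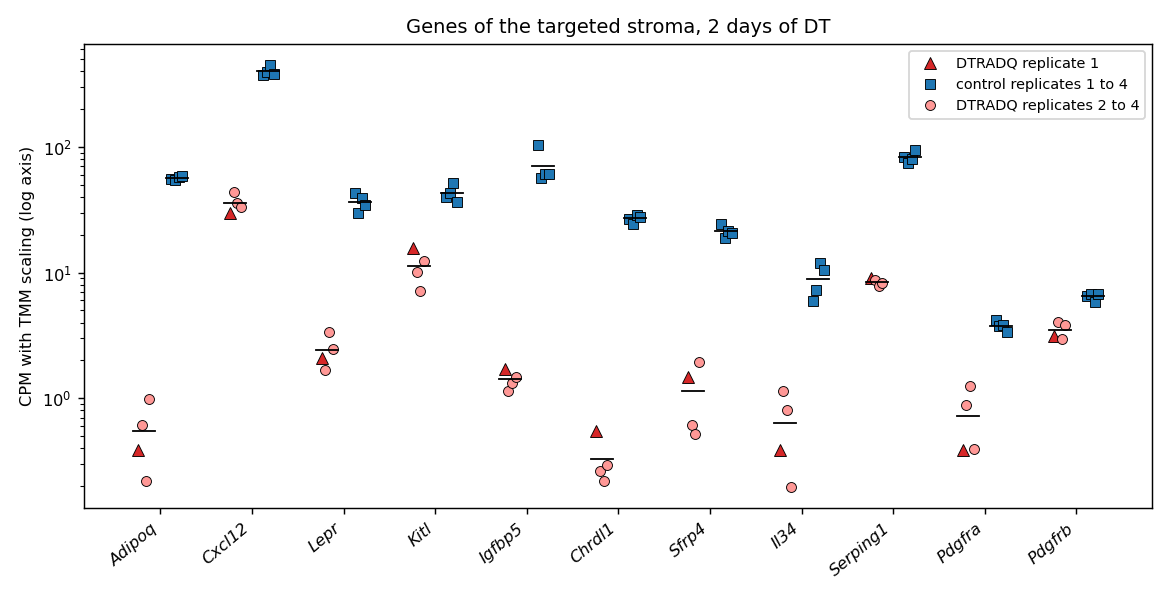
CPM with TMM scaling (log axis) of 11 stromal genes in each day 2 library; red triangles are DTRADQ replicate 1, pink circles DTRADQ replicates 2 to 4, blue squares the 4 controls, and black lines the means. In all 11 genes the groups are separate, from Adipoq with at most 0.979 CPM in DTRADQ against at least 55.0 CPM in controls to Pdgfrb with at most 4.02 against at least 5.88 CPM.

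Besides Prrx1, 3 other members of the list did not pass. Angpt1, angiopoietin 1, which quiets vessels and stem cells, was at 39.3, 53.3, 44.9 and 34.1 CPM in DTRADQ and 46.2, 31.4, 35.8 and 32.1 CPM in controls (0.24, adjusted p = 0.4269). Csf1, the macrophage growth factor, gave 9.19, 8.48, 7.95 and 8.22 CPM in DTRADQ and 7.19, 7.96, 6.78 and 6.1 CPM in controls (0.27, adjusted p = 0.4183). Vcam1, an adhesion molecule of stroma and of marrow macrophages, gave 597, 592, 510.5 and 688 CPM in DTRADQ and 318, 385, 522 and 448 CPM in controls (0.51, adjusted p = 0.1047). For all 3 the groups overlapped and the median DTRADQ library was the higher one. Among genes of fat cells Pparg, the regulator of fat cell formation, was at 20.7, 13.8, 16.9 and 18.9 CPM in DTRADQ and 16.3, 16.2, 15.7 and 22.2 CPM in controls (adjusted p = 0.9952) and Fabp4, a fatty acid binding protein that endothelial cells and macrophages express too, had a log2 difference of 0.54 (adjusted p = 0.2961). Cfd, adipsin, fell from 32, 17.3, 12.7 and 12.3 CPM in controls to 1.32, 0.437, 0 and 0 CPM (log2 difference −5.33 with SE 0.81, adjusted p = 4.6e-05), and without replicate 1 its change was −6.93 (adjusted p = 6.2e-05). Cidec, a lipid droplet protein, gave 1 read in DTRADQ and 84 in controls, a ratio of 63.7 (95% interval 11.1 to 2540). Of 12 tested fat cell genes 3 fell and 1 rose, Acsl1 (0.67, adjusted p = 0.0016), an acyl-CoA synthetase that neutrophils express too.

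Secreted inhibitors of bone morphogenetic proteins (BMPs) fell with the stroma: 5 of 8 tested antagonists fell and none rose (median −2.58), and 4 fell without replicate 1. Chrdl1, chordin-like 1, was at 0.545, 0.262, 0.221 and 0.294 CPM in the DTRADQ libraries and at 26.7, 24.6, 28.9 and 27.8 CPM in the controls (log2 difference −6.31 with SE 0.32, adjusted p = 3.3e-15). Grem1, gremlin 1, gave 0.312, 0, 0 and 0.489 CPM in DTRADQ and 6.38, 9.19, 8.98 and 6.63 CPM in controls (log2 difference −5.31 with SE 0.47, adjusted p = 1.7e-09). Both were near 0 in all 4 DTRADQ libraries. Bmper, another BMP-binding protein, gave 1 read against 42, a ratio of 31.8 (95% interval 5.41 to 1290). Fstl1, a follistatin-like protein, gave 18.9, 41.2, 36.9 and 39 CPM in DTRADQ and 53.3, 53.4, 48 and 55.1 CPM in controls (log2 difference −0.63 with SE 0.18, adjusted p = 0.0253). Replicate 1 was its lowest library, and without it the call was lost (−0.40, adjusted p = 0.1093). Of 7 tested BMP target genes, Id2 rose (0.51, adjusted p = 0.0355) and Id4 fell (−1.51, adjusted p = 0.0254, with 10.3% shared exon bases), while Id1 (0.53, adjusted p = 0.0565) and Id3 (−0.36, adjusted p = 0.3057) did not pass. Without replicate 1 Id1 passed (0.64, adjusted p = 0.0279) and Id4 did not (−1.14, adjusted p = 0.0815). For comparison, 4.4% of all genes rose and 4.12% fell, and 5.4% and 4.63% without replicate 1.

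Complement genes moved in both directions. Of 16 tested 6 fell and 2 rose, with the same counts without replicate 1. Serping1, the inhibitor of the first complement component, was at 9.04, 8.74, 7.87 and 8.22 CPM in the DTRADQ libraries and at 83.3, 74.2, 79.8 and 94 CPM in the controls (log2 difference −3.29 with SE 0.21, adjusted p = 5.4e-13). C4b, complement C4, gave 0.545, 1.22, 1.91 and 0.196 CPM in DTRADQ and 7.42, 6.21, 4.26 and 4.0 CPM in controls (log2 difference −2.45 with SE 0.37, adjusted p = 4.5e-05). C1s1, a protease of the first component with 18.4% shared exon bases, gave 0.234, 0.612, 0.221 and 0.0979 CPM in DTRADQ and 3.54, 3.75, 4.07 and 3.35 CPM in controls (log2 difference −3.62 with SE 0.36, adjusted p = 2.6e-08). All 3 were lower in every DTRADQ library than in any control. C3 rose, with 322, 308, 373 and 268 CPM in DTRADQ and 204, 201, 158 and 181 CPM in controls (log2 difference 0.77 with SE 0.16, adjusted p = 0.0029), and so did the receptor C3ar1 (0.92), while C1qa, a macrophage product, did not pass (−0.01, adjusted p = 0.989).

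Small leucine-rich proteoglycans, which bind collagen, fell in 4 of 8 tested members with and without replicate 1. Ogn, osteoglycin, gave 4.75, 3.15, 3.68 and 4.7 CPM in DTRADQ and 12.7, 14.8, 17.9 and 12.7 CPM in controls (log2 difference −1.83 with SE 0.23, adjusted p = 2.6e-06), Prelp changed by −1.76 (adjusted p = 0.00017) and Dcn, decorin, by −1.08 (adjusted p = 0.0018). Bgn, biglycan, was at 23.1, 56.8, 44.5 and 52.9 CPM in DTRADQ and 57.5, 51.7, 59.2 and 74.4 CPM in controls (−0.46, adjusted p = 0.1746), with replicate 1 far below the other libraries of both groups. Lum, lumican, lay at 9.11 to 9.71 CPM and 8.06 to 10.2 CPM (0.01, adjusted p = 0.9878).

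Regulators of WNT signals and of osteoclasts moved in both directions, with 4 of 11 tested lower and 1 higher, and 3 lower and 1 higher without replicate 1. Sfrp4, a secreted WNT inhibitor, was at 1.48, 0.612, 0.515 and 1.96 CPM in the DTRADQ libraries and at 24.4, 19, 21.2 and 20.6 CPM in the controls (log2 difference −4.25 with SE 0.34, adjusted p = 1.6e-10). Il34, a ligand of the CSF1 receptor, gave 0.39, 1.14, 0.809 and 0.196 CPM in DTRADQ and 5.91, 7.31, 11.9 and 10.4 CPM in controls (log2 difference −3.78 with SE 0.45, adjusted p = 5.5e-07). Tnfrsf11b, osteoprotegerin, which blocks RANKL, gave 0.935, 3.67, 5.0 and 7.34 CPM in DTRADQ and 0.522, 0, 0.388 and 0.263 CPM in controls (log2 difference 3.78 with SE 0.60, adjusted p = 0.0001). Osteoprotegerin was the member that rose, and its replicate 1 lay between the controls and the other 3 DTRADQ libraries. Sfrp1 fell (−2.35). Wnt4 fell with all libraries (−2.03, adjusted p = 0.0371) and did not pass without replicate 1 (−1.97, adjusted p = 0.0679). Igfbp4 fell (−1.07, adjusted p = 0.0075) and Igf1r, the receptor of insulin-like growth factor 1, rose (0.81, adjusted p = 0.0097), while Igf1 did not pass (−0.29, adjusted p = 0.2722).

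Of 16 tested osteoblast genes 1 rose and 1 fell, and 3 rose and 1 fell without replicate 1. For comparison, 4.4% of all genes rose and 4.12% fell, and 5.4% and 4.63% without replicate 1. Spp1, osteopontin, which macrophages and osteoclasts make as well, was at 361, 293, 274 and 480.0 CPM in DTRADQ and 86.5, 143, 127 and 109 CPM in controls (log2 difference 1.60 with SE 0.28, adjusted p = 0.00029). Ibsp, bone sialoprotein, went the other way, with 33.5, 37.3, 34 and 58.9 CPM in DTRADQ and 165, 126, 191 and 173 CPM in controls (log2 difference −2.0 with SE 0.29, adjusted p = 2.1e-05). Neither overlapped between groups. The osteoblast factors Runx2 (−0.12, adjusted p = 0.6649) and Sp7 (−0.81, adjusted p = 0.3957) and the phosphatase Alpl (0.28, adjusted p = 0.4067) did not pass. Of 14 tested osteoclast genes 2 rose and 1 fell, and 3 rose and 1 fell without replicate 1. The protease Mmp9 (0.76, adjusted p = 0.0149), which neutrophils make too, and the integrin Itgb3 (0.57, adjusted p = 0.0312), which platelets carry, were the 2 that rose. Acp5, the acid phosphatase of osteoclasts, fell (−0.81, adjusted p = 0.0107). The protease Ctsk (−0.06, adjusted p = 0.9427) and the factor Nfatc1 (0.23, adjusted p = 0.3772) did not pass, and Dcstamp, a fusion protein, passed without replicate 1 only.

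Genes of the contractile cytoskeleton and the CCN family formed the list with the largest share of rises. Of 22 tested, 14 rose and 1 fell (median 0.65), against 4.4% of all genes that rose, and without replicate 1 the counts were 15 and 1 (median 0.80). These genes are known targets of the actin-sensing factors SRF with MRTF and TEAD with YAP or TAZ. The rises ranged from 0.57 for Cnn2 and Tpm4 to 4.10 for Ccn1.

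The RefSeq sequences of 250 bases before the start of 2 of these genes are printed because both rose and both hold the core TEAD motif GGAATG, which is set in capitals where it occurs on either strand (CATTCC on the other strand); build GRCm38.p6, minus strand, 5′ to 3′.
Acta2, chr19:34255374-34255623: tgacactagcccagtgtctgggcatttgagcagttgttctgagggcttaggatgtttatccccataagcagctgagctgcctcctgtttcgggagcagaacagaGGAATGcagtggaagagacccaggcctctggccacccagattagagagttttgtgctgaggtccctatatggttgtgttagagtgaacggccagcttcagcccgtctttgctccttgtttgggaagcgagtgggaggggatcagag
Ccn1, chr3:145649986-145650235: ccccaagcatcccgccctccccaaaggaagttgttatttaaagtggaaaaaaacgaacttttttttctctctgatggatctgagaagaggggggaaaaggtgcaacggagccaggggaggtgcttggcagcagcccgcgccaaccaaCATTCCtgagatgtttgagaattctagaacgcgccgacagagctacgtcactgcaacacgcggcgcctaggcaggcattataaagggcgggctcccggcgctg

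In windows of 250 bases before to 50 after the start, GGAATG on either strand was found in 12 of the 20 list members with a promoter in the RefSeq table (60.0%), against 16.6% of all 27025 genes in that table (14.7% of its 32851 promoters). Among the 10 members with a promoter that were called higher, 6 held it. Lmod1, Ankrd1, Amotl2, Ajuba, Lats2 and Tagln2 held it without being called higher. The list is made of known targets of SRF and of YAP or TAZ, so high shares of their motifs may follow from that choice. The CArG box, the motif of SRF, was searched only as CC, then 6 letters of A or T, then GG. It was found in 3 of the 20 (Cnn2, Myl9 and Vcl, 15.0%) and in 1.81% of all genes (1.63% of promoters). Variants that depart from this pattern were neither counted nor marked, so a member without a match may still hold one. The palindromic EBF motif was searched in the stroma list and was found in 0 of 17 members and in 1.06% of all genes (0.904% of promoters), which says only that the motif is not in those windows. A match describes the letters in these windows and shows neither a bound site nor a cause.

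Tagln, transgelin, an actin-binding protein of smooth muscle and activated fibroblasts (chr9:45929628-45936058), was at 9.89, 27.4, 32.7 and 20.6 CPM in the DTRADQ libraries and at 1.27, 1.1, 1.16 and 1.77 CPM in the controls (log2 difference 4.09 with SE 0.30, adjusted p = 2.0e-11). Ccn1, a matrix-associated signalling protein whose promoter is printed above (chr3:145646971-145649985), was at 9.43, 11.1, 11.8 and 11.7 CPM in the DTRADQ libraries and at 0.464, 1.1, 0.517 and 0.459 CPM in the controls (log2 difference 4.10 with SE 0.39, adjusted p = 8.8e-09). Ccn2, connective tissue growth factor, with 23.2% shared exon bases, gave 3.43, 7.43, 8.9 and 7.44 CPM in DTRADQ and 0.696, 0.518, 1.49 and 0.525 CPM in controls (log2 difference 3.06 with SE 0.40, adjusted p = 3.4e-06). The groups did not overlap in any of the 3. In Tagln and Ccn2 replicate 1 was the lowest DTRADQ library by a wide margin, while in Ccn1 it lay close to the others.

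Acta2, smooth muscle actin (chr19:34241090-34255336), whose promoter is the other one printed, was at 19, 59.5, 57 and 47.8 CPM in DTRADQ and 25, 19.1, 15.2 and 14.4 CPM in controls (log2 difference 1.31 with SE 0.35, adjusted p = 0.0175). Replicate 1 fell within the controls, and without it the change was 1.59 (adjusted p = 0.0029). Ccn4, a further CCN protein, gave 1.25, 5.68, 2.72 and 5.48 CPM in DTRADQ and 0.869, 0.906, 0.258 and 0.459 CPM in controls (log2 difference 2.56 with SE 0.45, adjusted p = 0.00039). Cytoskeletal genes of many cell types rose by less: Vcl, vinculin, by 0.81, Cald1, caldesmon, by 0.80, Myh9, a nonmuscle myosin that platelets hold in large amounts, by 0.71, Actn1 by 0.68, Flna by 0.62 and Tpm1 by 0.61. Myl9, a myosin light chain, was at 198, 289.7, 269.6 and 238 CPM and 219.6, 156, 148 and 176 CPM (0.51, adjusted p = 0.163). Ccn5 was the member that fell (−1.32).

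Matricellular proteins and matrix proteases followed, with 6 of 24 tested higher and 3 lower (median 0.58). Without replicate 1 the counts were 10 and 3 (median 0.86). Postn, periostin, was at 6.54, 15, 11.3 and 11.4 CPM in the DTRADQ libraries and at 2.03, 3.23, 2.2 and 2.62 CPM in the controls (log2 difference 2.13 with SE 0.28, adjusted p = 3.1e-06). Timp1, an inhibitor of matrix proteases, gave 3.12, 6.64, 5.67 and 7.24 CPM in DTRADQ and 0.638, 0.971, 0.517 and 1.05 CPM in controls (log2 difference 2.82 with SE 0.42, adjusted p = 3.3e-05). Thbs1, thrombospondin 1, which platelets carry as well, gave 258, 457, 369.8 and 422 CPM in DTRADQ and 198, 164, 162 and 125 CPM in controls (log2 difference 1.21 with SE 0.20, adjusted p = 0.00011). In Postn, Timp1 and Thbs1 every DTRADQ library was above every control, and replicate 1 was the lowest of the DTRADQ libraries. Mmp13 (1.03) and Mmp9 rose too, and Timp4 (−3.38), Spon1 (−1.53) and Adamts5 (−0.94) fell. Lox, which cross-links collagen, was at 0.701, 4.11, 3.16 and 4.31 CPM and 3.48, 4.08, 3.81 and 5.18 CPM (−0.45, adjusted p = 0.4351), with replicate 1 far below the other 7 libraries.

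Collagen chains were mixed: 5 of 16 tested rose and 2 fell, with and without replicate 1, while the median moved from 0.52 to 0.83. Col12a1 was at 3.12, 7.95, 7.06 and 6.56 CPM in DTRADQ and 1.74, 2.39, 1.74 and 1.64 CPM in controls (log2 difference 1.71 with SE 0.30, adjusted p = 0.00039). Col8a1, a chain of vessel walls, gave 3.74, 11.8, 13.4 and 13.1 CPM in DTRADQ and 5.85, 6.15, 4.07 and 3.81 CPM in controls (log2 difference 1.07 with SE 0.30, adjusted p = 0.0225), and without replicate 1 1.38 (adjusted p = 0.0008). Col4a1, of basement membranes, gave 4.91, 12.7, 11.1 and 13 CPM in DTRADQ and 5.51, 5.63, 5.23 and 5.25 CPM in controls (log2 difference 0.94 with SE 0.26, adjusted p = 0.0187), and without replicate 1 1.20 (adjusted p = 0.001). In Col8a1 and Col4a1 replicate 1 was just below the controls and the other 3 were at about 2 times the controls or more. Col6a1 fell (log2 difference −1.49 with SE 0.28, adjusted p = 0.00093) while Col6a3 rose (1.28, adjusted p = 0.0066), so that chains of 1 collagen type went opposite ways. Col1a1, the main chain of bone and fibrous matrix, was at 21.3, 56.5, 83.3 and 85.7 CPM and 40.1, 39.1, 45.1 and 58.4 CPM (0.43, adjusted p = 0.6087).

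Of 16 tested genes of the TGF-beta and PDGF families 2 rose and 2 fell, and 4 rose and 2 fell without replicate 1. Beside these counts and those of the EGF pathway below, 4.4% of all genes rose and 4.12% fell. Without replicate 1 these shares were 5.4% and 4.63%. Inhba, a subunit of activin, rose (log2 difference 0.85 with SE 0.21, adjusted p = 0.0105), Inhbb rose by 2.28, Tgfbr3 fell (−1.17, adjusted p = 0.00055) and Ltbp2, a latent TGF-beta binding protein, fell (−1.90, adjusted p = 0.0034). Tgfb1 did not pass (0.36, adjusted p = 0.6562). Of 14 tested genes of the EGF pathway 2 fell and none rose, and 2 fell and 1 rose without replicate 1: Egfr, the receptor, was at 0.935, 0.786, 0.736 and 0 CPM in DTRADQ and 1.62, 1.81, 2.07 and 2.17 CPM in controls (log2 difference −1.58 with SE 0.43, adjusted p = 0.0207), and Lrig1, its inhibitor, changed by −1.37 (adjusted p = 0.0235). Hbegf, whose primate form is the DT receptor and whose mouse form binds the toxin poorly, was at 0.545, 1.05, 1.77 and 2.84 CPM and 0.464, 1.23, 1.03 and 0.394 CPM (0.97, adjusted p = 0.1394), and passed without replicate 1 (1.28, adjusted p = 0.0392).

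**Figure D3:**
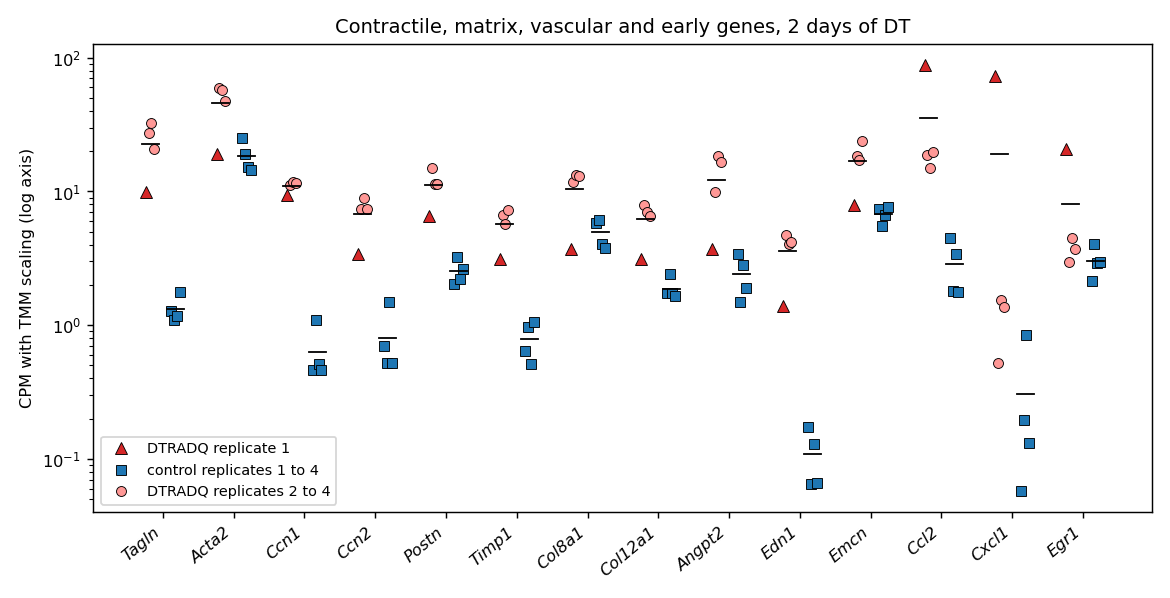
CPM with TMM scaling (log axis) of 14 contractile, matrix, vascular, chemokine and early response genes in each day 2 library, with symbols as in the plot of stromal genes. From Tagln to Emcn, Ccn1 included, the triangle of DTRADQ replicate 1 is the lowest DTRADQ value, and for Ccl2, Cxcl1 and Egr1 it is the highest (87.9, 73.1 and 20.8 CPM).

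Of 14 tested CC chemokines and receptors 2 rose and 1 fell, as without replicate 1. The shares over all genes were 4.4% and 4.12%, and 5.4% and 4.63% without replicate 1. The risers were Ccl2 and Ccl7, which attract monocytes. Ccl2 was at 87.9, 18.8, 14.9 and 19.6 CPM in the DTRADQ libraries and at 4.52, 1.81, 3.42 and 1.77 CPM in the controls (log2 difference 3.60 with SE 0.51, adjusted p = 1.4e-05). Ccl7, its neighbour in function, gave 6.93, 4.98, 3.83 and 4.5 CPM in DTRADQ and 0.522, 0.647, 0.388 and 0.591 CPM in controls (log2 difference 3.22 with SE 0.43, adjusted p = 6.4e-06). In both genes each DTRADQ library was above each control. In Ccl2 replicate 1 held more than 4 times the level of any other library, and without it the change was 2.63 (adjusted p = 8.0e-05). For Ccl7 the change without replicate 1 was 3.05 (adjusted p = 4.0e-05). Other CC chemokines did not pass, among them Ccl8 (0.01, adjusted p = 0.9944), Ccl12 (1.29, adjusted p = 0.1225), Ccl3 (0.15, adjusted p = 0.8271), Ccl4 (0.67, adjusted p = 0.2135) and Ccl5 (0.55, adjusted p = 0.2726). The receptor Ccr2 did not pass (−0.13, adjusted p = 0.7867), and Cx3cr1, the fractalkine receptor of monocytes, fell with 33.9, 20.5, 18.2 and 16.1 CPM in DTRADQ and 70.2, 38.6, 47.1 and 42.9 CPM in controls (log2 difference −1.16 with SE 0.24, adjusted p = 0.0023).

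Neutrophil-attracting chemokines and several early response genes were highest in replicate 1. Cxcl1 was at 73.1, 0.524, 1.54 and 1.37 CPM in the DTRADQ libraries and at 0.058, 0.194, 0.84 and 0.131 CPM in the controls (log2 difference 5.97 with SE 1.32, adjusted p = 0.0046). Cxcl2 gave 5.61, 2.19, 2.35 and 3.72 CPM in DTRADQ and 1.27, 0.324, 0.775 and 0.197 CPM in controls (log2 difference 2.39 with SE 0.71, adjusted p = 0.0323). Without replicate 1 neither passed, with 1.94, adjusted p = 0.375 for Cxcl1 and 2.07, adjusted p = 0.0803 for Cxcl2. Egr1, an early response transcription factor, gave 20.8, 2.97, 4.49 and 3.72 CPM in DTRADQ and 2.15, 4.08, 2.91 and 2.95 CPM in controls (log2 difference 1.42 with SE 0.44, adjusted p = 0.0389), and without replicate 1 0.34 (adjusted p = 0.5966). Egr2 gave 5.69, 1.49, 1.4 and 1.27 CPM in DTRADQ and 0.696, 1.1, 0.0646 and 0.131 CPM in controls (log2 difference 2.29 with SE 0.56, adjusted p = 0.0094), and without replicate 1 1.48 (adjusted p = 0.0818). Jun was at 12.7, 2.27, 2.35 and 3.92 CPM and 2.32, 2.07, 3.62 and 2.95 CPM (0.96, adjusted p = 0.1273) and Atf3 at 4.05, 0.612, 1.62 and 0.783 CPM and 1.22, 1.88, 1.42 and 0.984 CPM (0.39, adjusted p = 0.5839). In Cxcl1, Egr1, Egr2, Jun and Atf3 replicate 1 held more than 2 times the highest level of the other 7 libraries. The remaining DTRADQ libraries stayed above all controls in Cxcl2 and Egr2 and overlapped them in Cxcl1, Egr1, Jun and Atf3.

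The early response list as a whole had 4 of 21 tested members higher and none lower, and 2 higher without replicate 1: Fosl2 (0.76, adjusted p = 0.0208) and Ier3 (0.85, adjusted p = 0.018) passed both ways, and Fos passed in neither (0.87, adjusted p = 0.0839). Cxcl14, a chemokine of fibroblasts, fell with 0.156, 0.175, 0.147 and 0.979 CPM in DTRADQ and 5.74, 5.24, 4.0 and 3.81 CPM in controls (log2 difference −3.76 with SE 0.46, adjusted p = 9.2e-07). Ackr3, the scavenging receptor of CXCL12, was at 0.779, 1.14, 0.809 and 0.881 CPM and 0.522, 0.129, 0.0646 and 0.263 CPM (log2 difference 1.81 with SE 0.56, adjusted p = 0.0403). Cxcr4, the signalling receptor of CXCL12, was at 66, 58.1, 58.8 and 65 CPM and 243, 56.4, 66.7 and 52.4 CPM (−0.76, adjusted p = 0.1126), with control replicate 1 alone far above the other 7. None of 20 tested genes of the IL1 and IL6 families and of the NF-kB response passed, among them Il1b (0.29, adjusted p = 0.7038), Il6 (0.79, adjusted p = 0.2097) and Socs3 (0.41, adjusted p = 0.3777). In that list 6 genes had an unadjusted p under 0.05 in edgeR, DESeq2 called 3 and voom 6.

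Of 17 tested vascular growth factors 5 rose and 2 fell, with the same counts without replicate 1. Edn1, endothelin 1, was at 1.4, 4.72, 4.05 and 4.21 CPM in the DTRADQ libraries and at 0.174, 0.0647, 0.129 and 0.0656 CPM in the controls (log2 difference 4.92 with SE 0.54, adjusted p = 1.4e-07). Angpt2, angiopoietin 2, which loosens vessel walls, gave 3.74, 9.96, 18.3 and 16.7 CPM in DTRADQ and 3.42, 1.49, 2.84 and 1.9 CPM in controls (log2 difference 2.33 with SE 0.36, adjusted p = 5.4e-05). Adm, adrenomedullin, gave 1.4, 3.5, 3.9 and 4.7 CPM in DTRADQ and 0.638, 1.23, 0.581 and 1.31 CPM in controls (log2 difference 1.83 with SE 0.44, adjusted p = 0.008). The groups did not overlap in these 3 genes, although in Angpt2 replicate 1 was barely above the highest control. Hgf (0.73, adjusted p = 0.0447) and Apln (2.53) rose as well. Vegfc, which lymphatic and sinusoidal vessels respond to, fell with 0.0779, 0.437, 0.368 and 0.392 CPM in DTRADQ and 1.56, 2.27, 2.71 and 1.05 CPM in controls (log2 difference −2.57 with SE 0.53, adjusted p = 0.0025), and Vegfa did not pass (0.23, adjusted p = 0.6573).

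Of 23 tested endothelial genes 3 rose and none fell, and 7 rose without replicate 1. Over all genes 4.4% rose, and 5.4% without replicate 1. Emcn, endomucin of marrow vessels, was at 7.95, 18.4, 17.2 and 23.8 CPM in DTRADQ and 7.42, 5.5, 6.65 and 7.61 CPM in controls (log2 difference 1.30 with SE 0.25, adjusted p = 0.0011). Ecscr, an endothelial surface protein, changed by 1.36 (adjusted p = 0.00074), and Robo4, a guidance receptor, by 1.19 (adjusted p = 0.0031). Pan-endothelial genes did not pass: Pecam1 (0.34, adjusted p = 0.2369), Cdh5 (0.15, adjusted p = 0.7287) and Kdr (−0.46, adjusted p = 0.2372). Stab2, of sinusoids, was at 15.9 to 25.1 CPM and 16.9 to 23.5 CPM (0.15, adjusted p = 0.6839).

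Megakaryocyte and platelet genes rose in 7 of 20 tested members and in 13 without replicate 1, with all 20 above 0 in the main comparison (median 0.57). The groups did not overlap in 3 of the 20, where they did not in 21.5% of all genes. Beside these counts and those of the stem and progenitor genes below, 4.4% of all genes rose, and 5.4% without replicate 1. Itga2b, the platelet integrin, was at 103, 172, 151 and 98.1 CPM in DTRADQ and 107, 77.3, 73.2 and 71.1 CPM in controls (log2 difference 0.67 with SE 0.19, adjusted p = 0.023). Mmrn1, a platelet granule protein, gave 96.3, 141, 120.0 and 104 CPM in DTRADQ and 90.6, 66.5, 62.6 and 57.3 CPM in controls (log2 difference 0.73 with SE 0.20, adjusted p = 0.0216). In each of these genes replicates 2 and 3 were the highest of the DTRADQ libraries and control replicate 1 was the highest of the controls. Clec1b (0.55, adjusted p = 0.0179) and Itgb3 rose too. Pf4, platelet factor 4, did not pass (0.33, adjusted p = 0.4641), and Vwf passed only without replicate 1 (0.54, adjusted p = 0.0475). Of 20 tested stem and progenitor genes 2 rose, Hlf (0.64, adjusted p = 0.0265) among them, and 3 rose without replicate 1, while Kit (0.28, adjusted p = 0.2173), Cd34 (0.41, adjusted p = 0.0875) and Procr (0.61, adjusted p = 0.3944) did not pass.

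Neutrophil genes rose in part. Of 20 tested genes of late granules 7 rose and none fell (median 0.77), and of 22 genes of mature neutrophils 8 rose and none fell (median 0.81). The counts without replicate 1 were 8 and 10. Lcn2, a granule protein that binds iron carriers of bacteria, was at 4782, 5540.3, 6606 and 5108 CPM in DTRADQ and 2628, 3244, 2759 and 2891 CPM in controls (log2 difference 0.94 with SE 0.20, adjusted p = 0.0032). Ly6g, the surface marker of neutrophils, gave 204, 201, 248 and 193 CPM in DTRADQ and 117, 136, 111 and 109.8 CPM in controls (log2 difference 0.84 with SE 0.19, adjusted p = 0.0058). Retnlg, a resistin-like protein, gave 4578, 6281, 6623 and 5008 CPM in DTRADQ and 3267, 2887, 2771 and 2087 CPM in controls (log2 difference 1.03 with SE 0.24, adjusted p = 0.0068). All 4 DTRADQ libraries were above all 4 controls in Lcn2, Ly6g and Retnlg. Orm1 (1.14, adjusted p = 0.0016), the leukotriene receptor Ltb4r1 (1.0, adjusted p = 0.0087) and Hdc (0.95, adjusted p = 0.0237) rose, as did Stfa2 (2.11, adjusted p = 0.004) and BC100530 (1.57, adjusted p = 0.0039), which share reads with other stefin genes. The abundant granule genes Ngp (0.89, adjusted p = 0.09), Ltf (0.93, adjusted p = 0.0888) and Camp (0.68, adjusted p = 0.0756) lay above the controls in every DTRADQ library and did not pass. Of 12 tested genes on the list of primary granules, which form earlier, Serpinb1a rose and Igfbp4 fell. Igfbp4 encodes a binding protein of insulin-like growth factors and stands on the list of those proteins too. The proteases and enzymes Mpo (0.42, adjusted p = 0.3681, 15.0% shared exon bases) and Elane (0.30, adjusted p = 0.3921) did not pass.

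None of 12 tested eosinophil genes was called, with 11 of them above 0 (median 0.60). An unadjusted p under 0.05 was reached by 6 of them in edgeR, and DESeq2 and voom called 3 each. Prg2, the major basic protein, was at 7074, 6834, 8157 and 6032 CPM in DTRADQ and 5443, 4999.8, 3279.8 and 4975 CPM in controls (0.59, adjusted p = 0.1701), and Epx, the peroxidase, had a log2 difference of 0.61 (adjusted p = 0.2331). On day 1 and day 3, 6 and 9 of the 12 members rose in tests against the controls of those days, where 0.888% and 8.8% of all genes rose. For the eosinophil list no gene passed the test of the difference between day 2 and either day.

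Of 20 tested monocyte and dendritic cell genes 5 fell and none rose, as without replicate 1. H2-Aa, a class II histocompatibility chain, was at 153, 148, 169.6 and 133 CPM in DTRADQ and 316, 333, 396 and 317 CPM in controls (log2 difference −1.17 with SE 0.23, adjusted p = 0.0013). H2-Ab1 gave 86.2, 77.1, 87.5 and 66.5 CPM in DTRADQ and 145, 185, 195 and 160.4 CPM in controls (log2 difference −1.11 with SE 0.22, adjusted p = 0.0014). H2-Eb1 changed by −1.20 (adjusted p = 0.004) and Ciita, the regulator of class II genes, by −1.08. Cd209a, a lectin of dendritic cells, changed by −1.34 (adjusted p = 0.0249), and Cd74, the invariant chain that class II molecules assemble with, did not pass (−0.73, adjusted p = 0.1577). The groups were separate for each of the H2 genes, with replicate 1 inside the DTRADQ range. B cells carry the same chains, and the monocyte genes Ly6c2 (0.46, adjusted p = 0.0818), Csf1r (−0.02, adjusted p = 0.9622, 17.8% shared exon bases) and F13a1 (0.21, adjusted p = 0.534) did not pass. Siglech, of plasmacytoid dendritic cells, was at 76.4, 70.3, 58.5 and 16.5 CPM and 72.7, 63.9, 64.2 and 65.4 CPM (−0.26, adjusted p = 0.5994), with DTRADQ replicate 4 alone low. Of 20 tested macrophage genes 1 rose, near the share of all genes that rose (4.4%). This was Vsig4, a complement receptor of resident macrophages, with 1.48, 5.86, 2.87 and 7.54 CPM in DTRADQ and 1.04, 0.971, 1.03 and 1.12 CPM in controls (log2 difference 2.06 with SE 0.45, adjusted p = 0.004). Siglec1 (0.26, adjusted p = 0.6714), Axl (0.49, adjusted p = 0.1465) and Mrc1 (0.04, adjusted p = 0.9232) did not pass.

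Single red cell genes moved in both directions, while few members of the erythroid list were called. Alas2, the first enzyme of heme synthesis in red cells, with 15.5% shared exon bases, was at 7282, 10855, 7925 and 12046 CPM in the DTRADQ libraries and at 3033, 3520.1, 4898 and 3818 CPM in the controls (log2 difference 1.32 with SE 0.23, adjusted p = 0.00039). Bpgm, the enzyme that makes 2,3-bisphosphoglycerate, gave 2676, 4433, 3046 and 5779 CPM in DTRADQ and 1365, 1557, 2232 and 1664 CPM in controls (log2 difference 1.23 with SE 0.28, adjusted p = 0.0055). Epb41, protein 4.1 of the membrane skeleton, gave 548, 926, 548 and 993 CPM in DTRADQ and 282, 308, 455 and 300.1 CPM in controls (log2 difference 1.16 with SE 0.25, adjusted p = 0.003). In the 3 genes each DTRADQ library was above each control, and replicates 2 and 4 were the highest. The alpha globin genes Hba-a1 (1.06, adjusted p = 0.0361) and Hba-a2 (1.14, adjusted p = 0.0259), which share reads with each other, rose, and Hbb-bs passed without replicate 1 only (1.16, adjusted p = 0.0427). Fech (0.91), which inserts iron into heme, and Slc25a37 (0.70), which carries iron into mitochondria, rose.

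In the other direction Steap3, an iron reductase of erythroblasts, was at 22, 15.7, 12.5 and 19.1 CPM in DTRADQ and 32.2, 34.5, 34.6 and 39.5 CPM in controls (log2 difference −1.02 with SE 0.19, adjusted p = 0.00062). Cpox, coproporphyrinogen oxidase, gave 115, 66.6, 30.2 and 99.6 CPM in DTRADQ and 129, 132, 226 and 168 CPM in controls (log2 difference −1.07 with SE 0.31, adjusted p = 0.0296). Aqp1, a water channel, gave 125, 54.1, 36 and 67.4 CPM in DTRADQ and 103, 122, 157 and 152 CPM in controls (log2 difference −0.92 with SE 0.29, adjusted p = 0.046). The DTRADQ libraries of Cpox and Aqp1 ranged widely, with replicate 3 the lowest and replicate 1 the highest. Without replicate 1 the changes were −1.31 for Cpox (adjusted p = 0.0112) and −1.33 for Aqp1 (adjusted p = 0.0027). Alad (−0.91, adjusted p = 0.0351), Tfr2 (−0.99, adjusted p = 0.0075) and Abcb10 (−0.79) fell. Tfrc, the transferrin receptor, was at 427, 207, 124 and 290.1 CPM and 335, 365, 474 and 376 CPM (−0.57, adjusted p = 0.1595) and passed without replicate 1 (−0.89, adjusted p = 0.0199), as did Klf1, the erythroid transcription factor (−0.94, adjusted p = 0.1081 with it, −1.23, adjusted p = 0.0437 without).

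Of 26 tested erythroid genes 2 rose and 1 fell, and 2 rose and 5 fell without replicate 1. The shares over all genes were 4.4% and 4.12%, and 5.4% and 4.63% without replicate 1. For heme synthesis the counts were 3 and 3 of 13, and 3 and 5 without replicate 1. Slc4a1, an anion exchanger, had a log2 difference of 0.18 (adjusted p = 0.6677). The median of the erythroid list against the control mean was 0.19 in replicate 1, −0.44 in replicate 2, −1.06 in replicate 3 and −0.16 in replicate 4. The 4 libraries thus differed among themselves by more than the list's median change of −0.32.

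**Figure D4:**
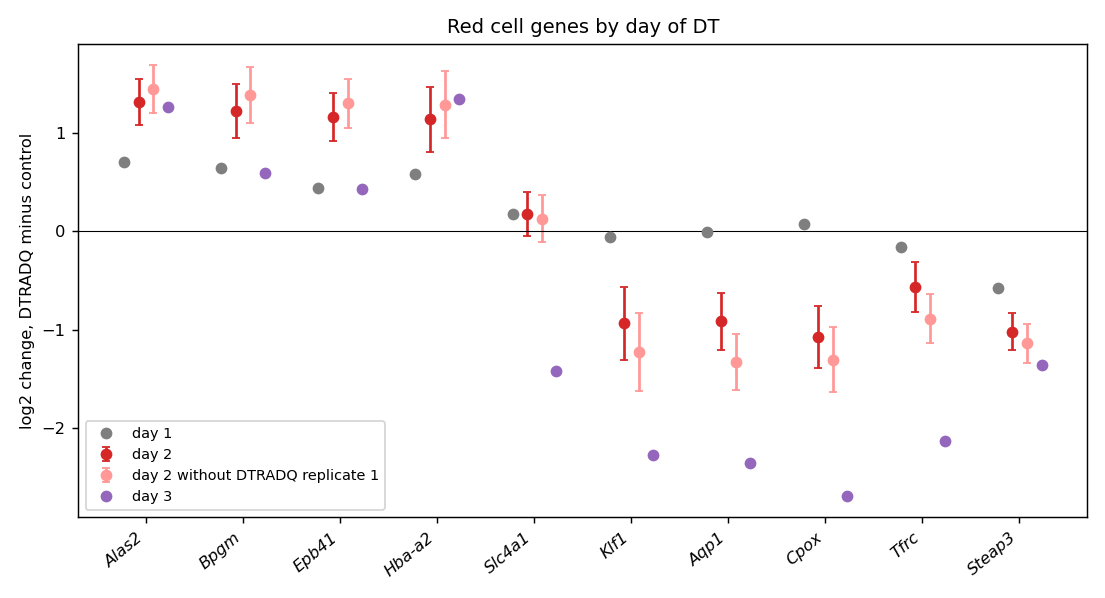
Log2 change, DTRADQ minus control, of 10 red cell genes at day 1 (grey), day 2 (red), day 2 without DTRADQ replicate 1 (pink) and day 3 (purple); bars are 1 SE and are drawn for day 2 only. Alas2, Bpgm, Epb41 and Hba-a2 lie above 0 on all 3 days, while Klf1, Aqp1, Cpox, Tfrc and Steap3 lie lowest at day 3.

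Lymphoid genes fell in part. Of 20 tested genes of B cell precursors 3 fell and 1 rose, and 3 fell and 2 rose without replicate 1. Among all genes 4.12% fell and 4.4% rose, and 4.63% and 5.4% without replicate 1. Dntt, terminal transferase, was at 43.5, 17.7, 13.8 and 11.8 CPM in the DTRADQ libraries and at 47.6, 44.5, 43 and 66.3 CPM in the controls (log2 difference −1.21 with SE 0.27, adjusted p = 0.0052). Vpreb1, a surrogate light chain, gave 14.6, 6.99, 5.37 and 8.32 CPM in DTRADQ and 15.9, 20.8, 19.7 and 23.2 CPM in controls (log2 difference −1.17 with SE 0.29, adjusted p = 0.0109). Igll1, the other surrogate chain, gave 82.9, 47.4, 30.8 and 60.6 CPM in DTRADQ and 92.8, 91.6, 80.8 and 135 CPM in controls (log2 difference −0.85 with SE 0.23, adjusted p = 0.0197). In Dntt replicate 1 lay among the controls and in Igll1 it overlapped them, and without it the changes were −1.78 for Dntt (adjusted p = 5.8e-06), −1.51 for Vpreb1 (adjusted p = 0.0013) and −1.10 for Igll1 (adjusted p = 0.0028). The receptor Il7r (−0.25, adjusted p = 0.5528) and the factors Ebf1 (−0.41, adjusted p = 0.2998) and Pax5 (−0.04, adjusted p = 0.9526) did not pass. Erg, an ETS factor that platelets' precursors and vessels express too, was the member that rose with all libraries (0.91, adjusted p = 0.00047).

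Of 22 tested genes of mature B and plasma cells 5 fell and none rose, and 6 fell without replicate 1. Fcer2a, the low-affinity IgE receptor of mature B cells, gave 11.4, 11, 9.86 and 12 CPM in DTRADQ and 32.9, 26.5, 36.8 and 33.5 CPM in controls (log2 difference −1.55 with SE 0.31, adjusted p = 0.0018). Cr2, a complement receptor, gave 3.19, 2.45, 1.62 and 2.15 CPM in DTRADQ and 7.83, 4.92, 11.1 and 7.74 CPM in controls (log2 difference −1.74 with SE 0.40, adjusted p = 0.0057). Cxcr5, the receptor that guides B cells to follicles, gave 4.05, 2.53, 3.02 and 4.31 CPM in DTRADQ and 10.3, 8.22, 10.5 and 9.84 CPM in controls (log2 difference −1.48 with SE 0.29, adjusted p = 0.0014). Every DTRADQ library was below every control in these genes, replicate 1 included. Ms4a1, CD20, overlapped between groups (−0.29, adjusted p = 0.5221), and Jchain, of plasma cells, was at 626, 752, 583 and 509 CPM and 336, 346, 82.2 and 84 CPM (1.54, adjusted p = 0.1694).

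T and NK cell genes fell in 4 of 24 tested members, and 2 fell and 1 rose without replicate 1. Among all genes 4.12% fell, and 4.63% fell and 5.4% rose without replicate 1. Lck, a T cell kinase, was at 24.5, 23.3, 19.4 and 20.3 CPM in DTRADQ and 32.6, 35.2, 34.7 and 35.6 CPM in controls (log2 difference −0.66 with SE 0.14, adjusted p = 0.0036). Cd8a changed by −1.20 (adjusted p = 0.0349). The receptor genes Trac (−1.06, adjusted p = 0.0492) and Trbc2 (−1.02, adjusted p = 0.0392) lost their calls without replicate 1 (−0.96, adjusted p = 0.1053 and −0.81, adjusted p = 0.1157). The NK genes Ncr1 (0.09, adjusted p = 0.8862) and Gzma (0.52, adjusted p = 0.256) did not pass.

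DNA replication genes fell in 10 of 27 tested members and in 15 without replicate 1, and none of the 27 was above 0 (median −0.44, and −0.56 without replicate 1). Ccne1, cyclin E1, was at 16.6, 12, 7.21 and 13.3 CPM in DTRADQ and 26.8, 23.6, 28.2 and 32.1 CPM in controls (log2 difference −1.17 with SE 0.21, adjusted p = 0.00049). Mcm5, a helicase subunit, gave 164, 129, 129.6 and 132 CPM in DTRADQ and 172, 177, 173 and 195 CPM in controls (log2 difference −0.37 with SE 0.11, adjusted p = 0.0312). The groups did not overlap, and in each gene replicate 1 was the DTRADQ library nearest to the controls. Orc1 (−0.70, adjusted p = 0.0195, 10.8% shared exon bases), Mcm2 (−0.70) and Pcna (−0.57) fell as well. E2f1 fell with all libraries (−0.51, adjusted p = 0.0329) and did not pass without replicate 1 (−0.48, adjusted p = 0.0573).

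None of 23 tested mitosis genes passed edgeR's test, and 1 fell without replicate 1, Birc5, survivin (−0.44, adjusted p = 0.0914 with it, −0.57, adjusted p = 0.0299 without). Mki67, the proliferation marker, was at 660.0, 489, 396 and 566 CPM and 642, 616, 792 and 640.1 CPM (−0.35, adjusted p = 0.2183). Plk1 did not pass (−0.11, adjusted p = 0.6878). In edgeR 5 of the 23 had an unadjusted p under 0.05, DESeq2 called 0 and voom 9. The medians of the erythroid, DNA replication and mitosis lists against the control mean were lowest in DTRADQ replicate 3, at −1.06, −0.77 and −0.42, and highest in replicate 1, at 0.19, −0.11 and 0.15.

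**Figure D5:**
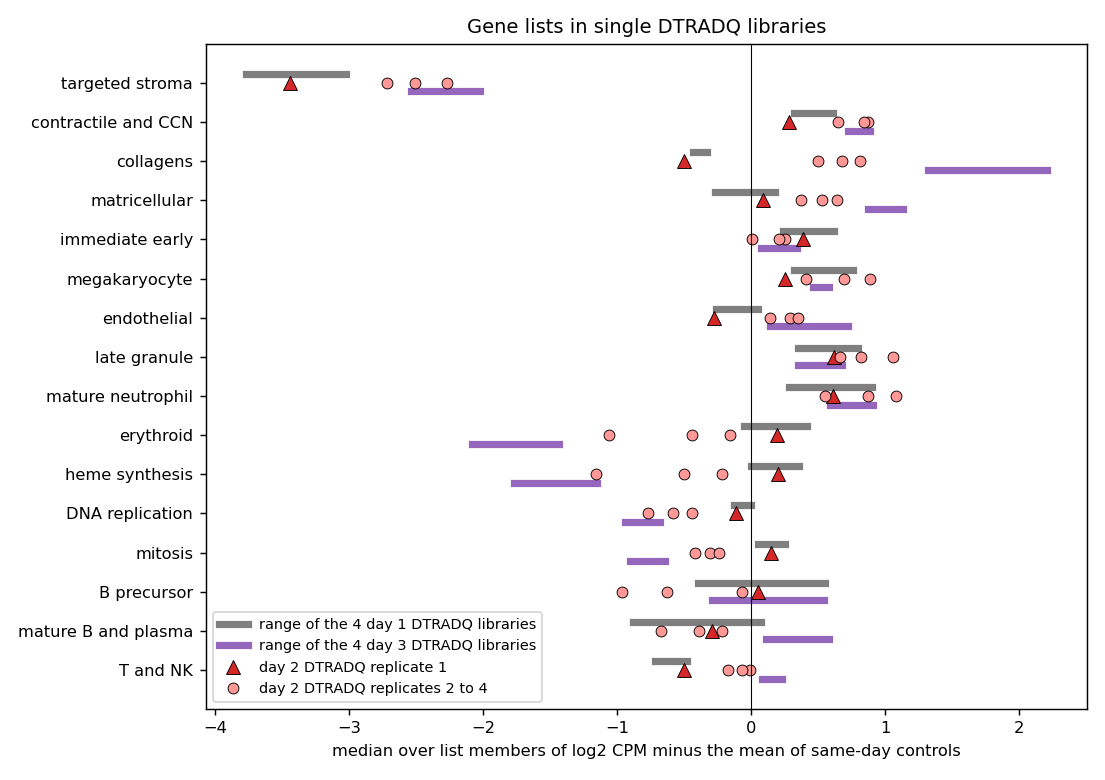
Median over list members of log2 CPM minus the mean of the controls of the same day, for 16 gene lists, in single DTRADQ libraries; red triangles are day 2 replicate 1, pink circles replicates 2 to 4, grey bars the range of the 4 day 1 libraries and purple bars that of the 4 day 3 libraries. Replicate 1 lies within or beside the grey bar in the stroma list (−3.44), in collagens (−0.50) and in T and NK genes (−0.50), and the other 3 lie toward the purple bar.

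Muscle fibre genes were checked because femur marrow can carry muscle fragments. Acta1, skeletal muscle actin, was at 0.857, 13.9, 1.91 and 0.489 CPM in DTRADQ and 2.78, 45.9, 3.68 and 2.23 CPM in controls (−1.68, adjusted p = 0.344), with DTRADQ replicate 2 and control replicate 2 high. The summed level of all 20 muscle genes of the list, tested or not, was 58.81 to 105.6 CPM in DTRADQ and 76.38 to 218.6 CPM in controls, highest in control replicate 2. Eno3, muscle enolase, fell (−1.12, adjusted p = 0.0388) and lost its call without replicate 1 (−0.93, adjusted p = 0.1109); its highest control was also replicate 2. The part of muscle fragments in these values was not tested. Of Schwann cell and neural genes, S100b fell with 0.701, 0.699, 0.589 and 0.881 CPM in DTRADQ and 2.9, 2.39, 2.2 and 3.41 CPM in controls (log2 difference −1.93 with SE 0.31, adjusted p = 0.00012), and Nes, nestin, which vessels and pericytes express too, rose with 0.0779, 1.49, 1.54 and 0.685 CPM in DTRADQ and 0.232, 0.129, 0.0646 and 0.0656 CPM in controls (log2 difference 2.85 with SE 0.73, adjusted p = 0.0131), although its replicate 1 lay among the controls. Ncam1 rose (0.70, adjusted p = 0.0154), and Gfap passed without replicate 1 only (−0.97, adjusted p = 0.0103).

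The next question was whether the effect at day 2 differed from that at day 1. In the test of the difference between the 2 effects, each measured against controls of its own day, edgeR called 0 of 14527 genes (0.0%). At an unadjusted p under 0.05 there were 746 genes. DESeq2 called 12, voom with library weights 0, and edgeR without a filter on low counts 2. Without DTRADQ replicate 1 edgeR called 38, of which 24 were higher and 14 lower at day 2. Replicate 1 was left out because it resembled day 1. Both the gain from 0 to 38 calls and the place of replicate 1 near day 1 in these genes follow from that choice. They are given as a description only. The adjusted p values of these genes below come from that fit and carry the same limit.

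In the higher group Fstl1 was at 36.9 to 41.2 CPM in replicates 2 to 4, at 13.8 to 17.1 CPM at day 1 and at 18.9 CPM in replicate 1 (difference 1.33, adjusted p = 0.0031). Bgn was at 44.5 to 56.8, 20.4 to 22.4 and 23.1 CPM in the same order (1.41, adjusted p = 0.0109). Tnc, tenascin C, was at 34.5 to 35.9, 13.9 to 17.2 and 22 CPM (1.19, adjusted p = 0.0018). Angpt2 (2.29, adjusted p = 0.0109), Col8a1 (2.34, adjusted p = 0.0026), Col12a1 (1.89, adjusted p = 0.0373), Tagln (1.70, adjusted p = 0.0361) and Vsig4 (2.69, adjusted p = 0.0389) were in this group.

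In the lower group Egr1 was at 2.97 to 4.49 CPM in replicates 2 to 4, at 20.7 to 48.3 CPM at day 1 and at 20.8 CPM in replicate 1 (difference −3.36, adjusted p = 0.0012). Jun (−2.95, adjusted p = 0.0018) and Atf3 (−2.46, adjusted p = 0.0167) were in this group. Suox, sulfite oxidase, was at 6.03 to 10.6, 24.1 to 36.9 and 23.8 CPM (−1.67, adjusted p = 0.0018), and Dntt at 11.8 to 17.7, 32.5 to 45.8 and 43.5 CPM (−1.45, adjusted p = 0.0288).

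Against day 3, 198 of 14527 genes (1.36%) had a different effect, 144 higher and 54 lower at day 2. Labels give lane 8 to the day 3 libraries and all lanes to the other libraries, so day and lane label cannot be told apart here. Without replicate 1 the count was 59, all of them among the 198. Lower effects at day 2 than at day 3 were called for Tagln (log2 changes 4.09 and 5.84, difference −1.75, SE 0.42, adjusted p = 0.0292), Postn (2.13 and 3.64, difference −1.50, SE 0.38, adjusted p = 0.0389) and Thbs2 (0.71 and 3.38, difference −2.66, SE 0.38, adjusted p = 0.001). Pdgfra had fallen further at day 2 (−2.34) than at day 3 (−0.76, difference −1.58, SE 0.40, adjusted p = 0.0395), and Pdgfrb (−0.90) stood at 0.42 at day 3 (difference −1.32, SE 0.23, adjusted p = 0.0032). Col6a1 stood at −1.49 at day 2 and 0.47 at day 3 (difference −1.97, SE 0.38, adjusted p = 0.0084). Without replicate 1 Postn (difference −1.34, adjusted p = 0.0997) and Pdgfra (−1.38, adjusted p = 0.1318) lost these calls, while Tagln (−1.52, adjusted p = 0.0434), Thbs2 (−2.47, adjusted p = 0.0027), Pdgfrb (−1.29, adjusted p = 0.0094) and Col6a1 (−1.84, adjusted p = 0.0264) passed.

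Of the 26 erythroid genes, 15 had a higher effect at day 2 and none a lower one, against 0.991% of all genes, and 7 without replicate 1. Slc4a1 stood at 0.18 at day 2 and −1.42 at day 3 (difference 1.60, SE 0.32, adjusted p = 0.0099), and Tfrc at −0.57 and −2.13 (difference 1.57, SE 0.36, adjusted p = 0.0252). Alas2 stood at 1.32 and 1.27, with no difference called. Of the 23 mitosis genes 3 had a higher effect at day 2, among them Mki67 (−0.35 and −1.30, difference 0.95, SE 0.25, adjusted p = 0.0493). Without replicate 1 the differences of Tfrc (1.20, adjusted p = 0.0997) and Mki67 (0.80, adjusted p = 0.1705) did not pass, and that of Slc4a1 (1.51, adjusted p = 0.0325) did. Of the 17 muscle fibre genes 7, Acta1 and Ckm (31.9% shared exon bases) among them, had a lower effect at day 2, and none did without replicate 1.

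Against the effect without DT, 1613 genes (11.1%) differed, 904 higher (6.22%) and 709 lower (4.88%) at day 2. The balance turned under other fits: it was 1486 higher and 1887 lower with voom, 1700 and 2045 without control replicate 1 of the mice without DT, and 901 and 953 without control replicates 3 and 4 of those mice. Adipoq stood at −1.24 without DT (difference −5.49, SE 0.47, adjusted p = 1.4e-09), Chrdl1 at 0.39 (difference −6.70, SE 0.40, adjusted p = 1.9e-13) and Igfbp5 at −0.19 (difference −5.45, SE 0.31, adjusted p = 9.9e-14). Tagln stood at 0.29 without DT (difference 3.80, SE 0.55, adjusted p = 4.2e-05), Ccn1 at 0.27 (difference 3.83, SE 0.62, adjusted p = 0.00025) and Ccl2 at −0.12 (difference 3.72, SE 0.75, adjusted p = 0.0018). The named differences from the effect without DT all passed without replicate 1. Of the 1238 genes called at day 2, 369 were also called in this difference in the same direction. Without DT 3944 genes (27.1%) were called between the genotypes, and 2 control libraries without DT had up to 50.69% of counts in their 10 most abundant genes. Cadps2, a secretion factor that this difference called, had 28.4 to 34.8 CPM in DTRADQ and 24.4 to 31.4 CPM in controls at day 2 and differed by −4.44 in log2 without DT (difference 4.57, SE 0.84, adjusted p = 0.00086).

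Calls at day 2 were set beside those of the other days. Of the 1238 genes, 301 were called at day 1 in the same direction and 0 in the opposite one, where 567 genes (3.9%) were called. At day 3, where 3330 (22.9%) were called, 789 were called in the same direction and 6 in the opposite one. Without DT 262 were called in the same direction and 58 in the opposite one.

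Among the calls that did not survive the removal of DTRADQ replicate 1, the largest changes were those of Cxcl1, Cxcl2 and several immunoglobulin variable genes. Igkv2-112, a kappa light chain segment whose reads can be split with its relatives, was at 12.5, 8.83, 1.62 and 4.11 CPM in DTRADQ and 0.638, 2.52, 1.42 and 0.591 CPM in controls (log2 difference 2.39 with SE 0.66, adjusted p = 0.0216), and without replicate 1 at 1.92 (adjusted p = 0.0713). Nefh, a neurofilament, changed by −1.33 (adjusted p = 0.0351) with it, and the value was −1.07 (adjusted p = 0.0998) without it. Slc35g1, a membrane transporter, changed by −1.58 (adjusted p = 0.0244) with it, against −1.35 (adjusted p = 0.0676). Calls gained without replicate 1 included Sparcl1, a matricellular protein of vessels (1.26, adjusted p = 0.0379), Ube2o, a ubiquitin ligase of maturing red cells (1.14, adjusted p = 0.0491), and Oas1e (1.47, adjusted p = 0.0323), whose highest library was DTRADQ replicate 4 with 15.1 CPM.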

How the data were processed

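Whole femur marrow RNA was sequenced as 1 library per mouse, with 4 mice in each of 8 groups. The deposited tables held raw read counts per gene, with CPM and RPKM that the authors derived from them, and the counts alone were tested here. Reads were handled with bcl2fastq, STAR 2.0.4b, Subread and featureCounts 1.45 on GRCm38, per the submitters' processing notes. No source used here gives the strand setting or the treatment of shared reads. Genes were kept by edgeR's filterByExpr with a minimum count of 10, scaled by TMM and fitted with the quasi-likelihood test (edgeR 4.0.16, R 4.3.3) over all 32 libraries as 8 group means. Differences between days were tested as interaction contrasts, 2-sided, with Benjamini-Hochberg adjustment. The fitting steps were tested on simulated data. Alternatives used DESeq2 1.42.0, limma 3.58.1 voom, other filters and samples, and each library left out. Named genes were the 12 largest rises and falls with separate groups, list anchors and the 3 smallest p of each list, the 8 largest rises and falls of each difference, the 10 largest lost and gained calls, and Adipoq, Cxcl12 and Tagln, at a mean log2 CPM of at least 1 for ranked changes; some genes this rule names are not reported here. Members outside this rule, and the genes of the day 1 difference without replicate 1, were chosen after their values were seen. The comparison and all lists were chosen with earlier results of these data known. The p-values weigh a change against the spread between mice within groups. That spread was estimated over all 8 groups together, so mice outside the day 2 comparison enter it.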

Additional observations from a re-analysis of the deposited data

Results flagged for a closer look

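A library was singled out where its gap to the nearest of its group took up more of the group's range than Dixon's limit for 4 samples allows, which chance does in about 1 in 20 groups. Over the set of named genes that was checked, which leaves out some genes of the text, 34 of 414 groups met it (8.21%). DTRADQ replicate 1 was the highest library, beyond that limit, for Ccl2 (87.9 CPM, next 19.6 CPM), Cxcl1 (73.1 CPM, next 1.54 CPM), Egr1 (20.8 CPM, next 4.49 CPM), Egr2 (5.69 CPM, next 1.49 CPM), Jun (12.7 CPM, next 3.92 CPM) and Mcm5 (164 CPM, next 132 CPM). DTRADQ replicate 1 was the lowest library, beyond that limit, for Col8a1 (3.74 CPM, next 11.8 CPM) and Ier3 (21.4 CPM, next 27.8 CPM). DTRADQ replicate 2 was the highest library, beyond that limit, for Acta1 (13.9 CPM, next 1.91 CPM). DTRADQ replicate 3 was the highest library, beyond that limit, for Camp (10062 CPM, next 8493 CPM), Kit (44.0 CPM, next 39.0 CPM) and Ltf (14663 CPM, next 11582 CPM). DTRADQ replicate 4 was the highest library, beyond that limit, for Cxcl14 (0.979 CPM, next 0.175 CPM), Ibsp (58.9 CPM, next 37.3 CPM), Oas1e (15.1 CPM, next 4.81 CPM) and Tgfbr3 (6.46 CPM, next 4.05 CPM). DTRADQ replicate 4 was the lowest library, beyond that limit, for Fmo2 (0 CPM, next 0.147 CPM). Control replicate 1 was the highest library, beyond that limit, for Clec1b (204 CPM, next 158 CPM), Cxcr4 (243 CPM, next 66.7 CPM), Igfbp5 (104 CPM, next 61.4 CPM), Itga2b (107 CPM, next 77.3 CPM), Itgb3 (212 CPM, next 132 CPM), Siglech (72.7 CPM, next 65.4 CPM) and Vwf (103 CPM, next 59.2 CPM). Control replicate 1 was the lowest library, beyond that limit, for Acp5 (89.8 CPM, next 122 CPM). Control replicate 2 was the highest library, beyond that limit, for Acta1 (45.9 CPM, next 3.68 CPM), Ccn1 (1.10 CPM, next 0.517 CPM), Col12a1 (2.39 CPM, next 1.74 CPM), Ltb4r1 (33.5 CPM, next 28.2 CPM) and Nfatc1 (39.5 CPM, next 29.8 CPM). Control replicate 3 was the highest library, beyond that limit, for Epb41 (455 CPM, next 308 CPM) and Mki67 (792 CPM, next 642 CPM). Control replicate 4 was the highest library, beyond that limit, for Ebf1 (193 CPM, next 139 CPM) and Pparg (22.2 CPM, next 16.3 CPM).

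Effects at day 2 differed from those of other groups in edgeR's test of the difference, for 1613 genes against the effect without DT and for 198 genes against day 3. Named differences from the effect without DT, day 2 minus no DT in log2, were −5.49 for Adipoq (adjusted p = 1.4e-09), 4.57 for Cadps2 (adjusted p = 0.00086), 3.72 for Ccl2 (adjusted p = 0.0018), 3.83 for Ccn1 (adjusted p = 0.00025), −6.70 for Chrdl1 (adjusted p = 1.9e-13), −5.45 for Igfbp5 (adjusted p = 9.9e-14) and 3.80 for Tagln (adjusted p = 4.2e-05). Named differences from day 3, day 2 minus day 3 in log2, were −1.97 for Col6a1 (adjusted p = 0.0084), 0.95 for Mki67 (adjusted p = 0.0493), −1.58 for Pdgfra (adjusted p = 0.0395), −1.32 for Pdgfrb (adjusted p = 0.0032), −1.50 for Postn (adjusted p = 0.0389), 1.60 for Slc4a1 (adjusted p = 0.0099), −1.75 for Tagln (adjusted p = 0.0292), 1.57 for Tfrc (adjusted p = 0.0252) and −2.66 for Thbs2 (adjusted p = 0.001). The lane label of the day 3 libraries cannot be told apart from the day.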

How the results depend on the processing

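The count of 1238 calls at day 2 was 1700 with DESeq2 and 1579 with the replicate number as a block, and both are within 1.5 times, although the calls that were higher in DESeq2 reached 979 against 639. It was 2621 (1413 higher, 1208 lower) when only the 8 libraries were fitted, 2896 (1490 and 1406) without control replicates 3 and 4 of the mice without DT, and 3608 (1775 and 1833) with limma voom and library weights. With each library left out in turn it ran from 574 to 1484, higher calls from 235 to 799 and lower calls from 281 to 685. The difference from the effect without DT was called for 1613 genes, 359 when only those groups were fitted, 3373 with voom, and 1135 to 3745 with a library left out, the highest without control replicate 1 of the mice without DT. The difference from day 1 was called for 12 genes in DESeq2, 2 without the filter, and 0 to 38 with a library left out, the 38 without DTRADQ replicate 1. The difference from day 3 was called for 333 genes in DESeq2, 445 with only those groups, 475 without the 2 controls, 707 with voom, and 59 to 318 with a library left out. The cause of these shifts was not tested. Of the 133 called genes that were checked at day 2, 84 kept their call and direction under every alternative, 49 lost the call under at least 1, and none reversed. Not every called gene named in the text was in this check. The report names the 25 that lost it under 5 or more of 15 fits. The 24 that lost it under 1 to 4 were Acta2, Cd8a, Cpox, Egfr, Fosl2, Hgf, Id4, Lrig1, Nes, Orc1, Fstl1, Hdc, Ier3, Igll1, Mmp9, Acp5, Cxcl1, Igkv5-43, Ncam1, Plin2, Egr2, Igf1r, Inhba and Vpreb1. Deviations of same-numbered DTRADQ and control libraries correlated at −0.093, 0.049, −0.157 and 0.107. With 4 libraries a group, these values cannot show whether the numbers pair the mice. With the replicate block, Aqp1 (adjusted p = 0.0523) and Egr1 (adjusted p = 0.0594) lost their calls. Depth limits genes under about 1 CPM, which rest on few reads, and 4 mice a group limit all tests.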

Other observations

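Genes of lipid handling that respond to PPAR factors rose in 4 of 19 tested members and fell in none (median 0.40), and 5 rose without DTRADQ replicate 1. Cpt1a, which brings fatty acids into mitochondria, was at 73.5, 69.5, 72.2 and 68.2 CPM in the DTRADQ libraries and at 44.6, 42, 42 and 48.9 CPM in the controls (log2 difference 0.68 with SE 0.15, adjusted p = 0.0039). Plin2, a coat protein of lipid droplets, gave 273, 287, 319 and 354 CPM in DTRADQ and 172, 150.5, 158 and 172 CPM in controls (log2 difference 0.92 with SE 0.24, adjusted p = 0.0177). Acot1, an acyl-CoA thioesterase, gave 1.64, 2.01, 1.32 and 2.74 CPM in DTRADQ and 0.58, 0.647, 0.775 and 0.656 CPM in controls (log2 difference 1.51 with SE 0.37, adjusted p = 0.0088). Of 23 tested cholesterol genes 1 rose, and 3 rose without replicate 1. Of 22 tested hypoxia and glycolysis genes 3 rose and 1 fell. Beside the counts of this paragraph, 4.4% of all genes rose and 4.12% fell. Without replicate 1 these shares were 5.4% and 4.63%, and the cholesterol count with all libraries was near the share over all genes.

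Few genes of the stress lists passed. Beside the day 2 counts of this paragraph, 4.4% of all genes rose and 4.12% fell, and 5.4% and 4.63% without replicate 1. None of 19 tested p53 targets passed edgeR's test, where 5 had an unadjusted p under 0.05, DESeq2 called 1 and voom 3. None of 18 genes of the unfolded protein response passed with all libraries, with 3 at an unadjusted p under 0.05 and 2 called by DESeq2 and by voom, and 1 passed in edgeR without replicate 1. The same edgeR count was 0 for 11 heat shock genes (3 at an unadjusted p under 0.05, 1 in DESeq2, 2 in voom) and for 20 ribosome biogenesis genes (3, 0 and 4). For 8 genes of the mitochondrial genome all 3 tools and the unadjusted p gave 0. Slc7a11, a cystine transporter, was the member of 20 integrated stress response genes that rose (0.81, adjusted p = 0.0459). Of 26 tested ribosomal protein genes all 26 lay below 0 (median −0.35), and Rpl11 passed (−0.64, adjusted p = 0.0361). Its call was lost without the filter on low counts (adjusted p = 0.1017) and in 7 of the 8 fits that left out a library. Between the genotypes without DT the median of this list was −0.95, with 16 members lower and 1 higher, where 14.4% and 12.7% of all genes were called so. It was −0.2 at day 1 and −0.36 at day 3. Of 24 tested interferon response genes Oas3 (0.81, adjusted p = 0.0075) and Rsad2 (1.24, adjusted p = 0.0003) rose, and 3 rose without replicate 1. Mt2, a metal-binding protein that glucocorticoids induce, was at 1.09, 2.1, 1.47 and 4.4 CPM in the DTRADQ libraries and at 5.56, 8.22, 13.1 and 12.5 CPM in the controls (log2 difference −2.15 with SE 0.51, adjusted p = 0.0071).

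A few of the largest changes stood outside the gene lists. Gt(ROSA)26Sor, the transcript of the locus that carries the receptor allele in iDTR mice, was at 3.04, 2.45, 2.06 and 2.94 CPM in the DTRADQ libraries and at 26.4, 3.3, 78.2 and 60.4 CPM in the controls (log2 difference −4.01 with SE 1.15, adjusted p = 0.0266). Its level in controls varied from mouse to mouse in each of the other 3 control groups as well, from 2.08 to 74.2 CPM at day 1, and DTRADQ replicate 4 of day 1 held 29.1 CPM. Its call at day 2 was lost in voom (adjusted p = 0.1063) and in 5 of the 8 fits that left out a library (adjusted p up to 0.0915). Me1, malic enzyme, was at 6.62, 4.11, 2.94 and 5.19 CPM in the DTRADQ libraries and at 0.058, 0.518, 0.452 and 0.263 CPM in the controls (log2 difference 3.86 with SE 0.47, adjusted p = 9.2e-07), and its change was 3.56 without DT. Igkv5-43, a kappa light chain segment whose reads can be split with its relatives, gave 11, 7.6, 9.49 and 5.97 CPM in DTRADQ and 1.74, 2.2, 1.03 and 2.69 CPM in controls (log2 difference 2.15 with SE 0.59, adjusted p = 0.0194).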
